A study of Mus musculus with 2 samples.

Results

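Insulin signalling through Akt and Foxo1 was described by 9 genes chosen by name: the receptor gene Insr, the substrate genes Irs1, Irs2 and Irs3, the receptor inhibitor gene Grb14, the regulatory subunit gene Pik3r1, the kinase genes Akt1 and Akt2 and the transcription factor gene Foxo1. All 9 had a row among the 21113 genes of the deposited tables. The tables hold RNA sequencing of mammary gland from the strain C57BL/6, taken in postnatal week 6. The first library is wild type. The second is from a sample labelled Mir212/132 ILN/ILN, in which both alleles of the shared miR-212 and miR-132 locus carry a cassette named IRES-LacZ-Neo. The labels name no driver that would confine the cassette to a cell type, and do not say whether a sample is 1 mouse or a pool.

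Insulin binds its receptor tyrosine kinase at the cell surface, and the receptor phosphorylates the insulin receptor substrates. These recruit phosphoinositide 3-kinase, whose lipid product brings the kinase Akt to the membrane, and Akt phosphorylates Foxo1, which keeps that transcription factor out of the nucleus. In fat, the main tissue of the mammary fat pad, this route drives glucose uptake and lipid storage and restrains lipolysis.

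Each genotype had 1 library, so differences have no replicate check and no test was made. Fragments assigned to genes numbered 46133338 in wild type and 42953129 in ILN/ILN. Fragments are the whole numbers recovered from the deposited per-kilobase signal. Ratios are ILN/ILN over wild type, from fragments scaled by these totals. The intervals in parentheses are 95% exact conditional intervals for counting error alone and say nothing of how mice or dissections vary. Levels are FPKM-like values, scaled for gene length and library size, and are the ones used to compare genes with each other. Transcripts of the microRNAs were not analysed here, and nothing else here checks the genotype labels.

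The libraries differed in markers of other cell types. The 12 luminal epithelium markers summed to a level of 46.2 in wild type and 1.06 in ILN/ILN, where Krt8, Cldn7 and Elf5 had 0 fragments, and the 8 measured ones each had a log2 ratio of -2.79 or below. The 7 basal epithelium markers summed to 76.3 and 58.4. Among them the keratin genes Krt5, Krt14 and Krt17, under the minimum level, had 78, 62 and 59 fragments in wild type and 0 in ILN/ILN. The 4 measured basal markers did not follow the keratins, with log2 ratios from -0.38 to 0.33 and 1 above 0. The 7 B cell markers summed to 180.1 and 34.2, the 7 T cell markers to 71.0 and 24.7, and the 9 macrophage markers in the table to 2025 and 1324. The 16 white adipocyte markers summed to 88514 and 80268, with a median log2 ratio of 0.20 and 13 of 16 above 0. In bulk tissue, fewer cells of a type and less RNA per cell cannot be told apart. The part of these markers in the differences of the insulin signalling genes was not tested.

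The 3p mature microRNAs of the locus are shown because their shared seed defines the sites searched in these genes. The locus also yields miR-132-5p and miR-212-5p, whose seeds ACCGUGG and CCUUGGC differ. Sites of these 5p products were not searched. The sequences are from RefSeq (GRCm38.p6), 5′ to 3′, with the seed, bases 2 to 8, in capitals. Mir132 yields the first, at chr11:75173723-75173744 on the plus strand, and Mir212 the second, at chr11:75173443-75173464 on the plus strand.
mmu-miR-132-3p: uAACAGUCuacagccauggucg
mmu-miR-212-3p: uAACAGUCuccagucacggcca
Both carry the seed AACAGUC. Its sites GACTGTT (bases 2 to 8) and ACTGTTA (bases 2 to 7 followed by an A), which together make the 8-mer GACTGTTA, were searched on the transcript strand of the 3′ untranslated region, taking the longest one annotated per gene. Of the 9 genes, 2 held a site, Insr and Pik3r1, and none held the 8-mer. Among 10279 measured genes searched, 21.0% held a site and 2.90% the 8-mer. The median length of the region searched was 2685 bases in the members and 1314 in those 10279 genes, a difference not adjusted for. The sites of the members follow with 11 bases to each side. The 8-mer of Foxo3, a paralog of Foxo1, is added. Foxo3 also holds GACTGTT at bases 3857 to 3863, which is not printed.
Insr, bases 1393 to 1399 of 4747: actggatattcGACTGTTtcagatagtaa
Pik3r1, bases 175 to 181 of 4317: acgcagcctcgGACTGTTggatgaccaga
Pik3r1, bases 3082 to 3088 of 4317: taatgtgcatgGACTGTTtccaatacacc
Foxo3, bases 162 to 169 of 4490: aacccagcagaGACTGTTAgcagccctggc
The 2 members with a site lay on opposite sides: Insr was 1.42-fold higher and Pik3r1 1.76-fold lower in the ILN/ILN library. Foxo3 was 1.14-fold lower, and Rictor, Ccng2 and Sod2, the other pathway genes with the 8-mer, had ratios of 1.12, 1.12 and 0.991. Over all measured genes the median log2 ratio was 0.07 in 2157 with a site and 0.01 in 8097 without one, unadjusted for region length. A match of letters is a description and not evidence of binding.

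In the ILN/ILN library Irs2 and Irs3 were at least 1.5-fold higher, Pik3r1 was at least 1.5-fold lower, and the other 6 members lay within 1.5-fold. Among 11528 measured genes, those with a level of at least 1 in either library and at least 1 fragment, 2.88% were 1.5-fold higher, 7.59% were 1.5-fold lower and 10.5% passed either way. At a log2 ratio of 0.32 or more either way, 6 members were higher and 1 lower, where 12.1% and 15.7% of measured genes were, 27.9% in all. No member reached 2-fold, as 0.798% of measured genes did upward and 3.36% downward, 4.16% in all. The median log2 ratio was 0.40 over the 9 members and 0.02 over all measured genes. Of the members, 6 had a ratio above 1 and 3 below, as 6082 and 5446 of the 11528 measured genes did. The counting interval lay clear of 1 in all 9, as it did in 62.5% of measured genes.

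**Figure D1:**
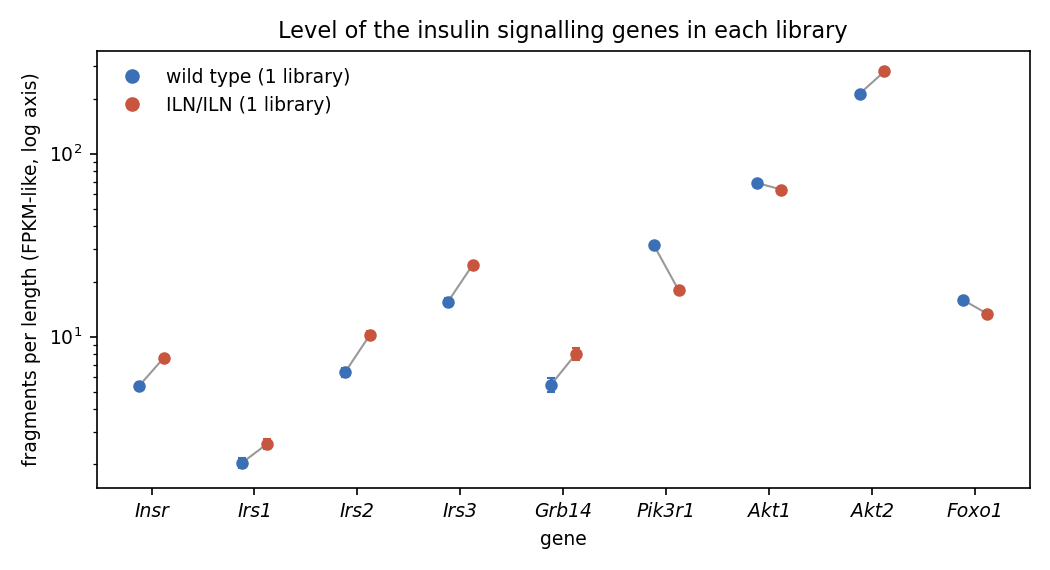
Level of each of the 9 genes (fragments per length, FPKM-like, log axis) in the wild-type (blue) and ILN/ILN (red) library, 1 point per library, with 95% Poisson intervals for counting error. Akt2 was highest and Irs1 lowest in both libraries, and Pik3r1 shows the steepest downward line, from 31.6 to 18.0.

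Insr, which encodes the insulin receptor, had 2426 fragments in wild type and 3217 in ILN/ILN. Its level was 5.38 and 7.67, and the ratio was 1.42 (1.35 to 1.502), with 4.31% of measured genes at a ratio as high or higher. Igf1r, the closely related receptor for insulin-like growth factors, had 719 and 631 fragments and a ratio of 0.943 (0.846 to 1.05), an interval that includes 1. The level of Insr was thus 4.33 times that of Igf1r in wild type and 6.54 times in ILN/ILN. Insrr, the orphan receptor of this family, was below the minimum level of 1, with 86 and 28 fragments. Igf2r, a clearing receptor for insulin-like growth factor 2 that lacks kinase activity, was at 12.2 and 14.5.

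The 3 substrate genes were all higher in the ILN/ILN library, Irs1 less so than the others. Irs1, a broadly expressed substrate, had 902 and 1061 fragments, a level of 2.04 and 2.58 and a ratio of 1.26 (1.16 to 1.38). Irs2, the substrate best known from liver and beta cells, had 1221 and 1814 fragments, a level of 6.38 and 10.2 and a ratio of 1.60 (1.48 to 1.72). Irs3, a shorter substrate known from rodent fat, had 1704 and 2524 fragments, a level of 15.5 and 24.7 and a ratio of 1.59 (1.495 to 1.69). Ratios as high as that of Irs2 occurred in 2.01% of measured genes, and as high as that of Irs3 in 2.07%.

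Per length, Irs3 was the most abundant substrate in both libraries, at 2.43 times Irs2 in wild type and 2.42 times in ILN/ILN. Irs3 made up 64.8% of the summed Irs level in wild type and 65.9% in ILN/ILN, and Irs1 8.54% and 6.90%. The summed level went from 23.9 to 37.5. Irs4 had 0 fragments in both libraries, which allows up to 3 fragments. Irs1 and Irs2 each overlap a gene on the opposite strand in the GENCODE annotation (GRCm38), by up to 2822 and 162 bases of exon, and the sources used here do not say whether counting used strand. Their values are uncertain to that extent.

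Grb14 encodes an adaptor that binds the active insulin receptor and inhibits its kinase. It had 504 and 689 fragments, a level of 5.45 and 8.01 and a ratio of 1.47 (1.31 to 1.65). In each library the counting intervals of the Grb14 and Insr levels overlapped, and Insr stood at 0.987 times Grb14 in wild type and 0.958 times in ILN/ILN. Grb10, the paralog with the same inhibitory role, was lower in ILN/ILN, with 2893 and 2362 fragments and a ratio of 0.877 (0.830 to 0.926). Grb10 was therefore 2.40 times Grb14 in wild type and 1.44 times in ILN/ILN. Grb7, the remaining paralog, was under the minimum with 82 and 26 fragments.

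**Figure D2:**
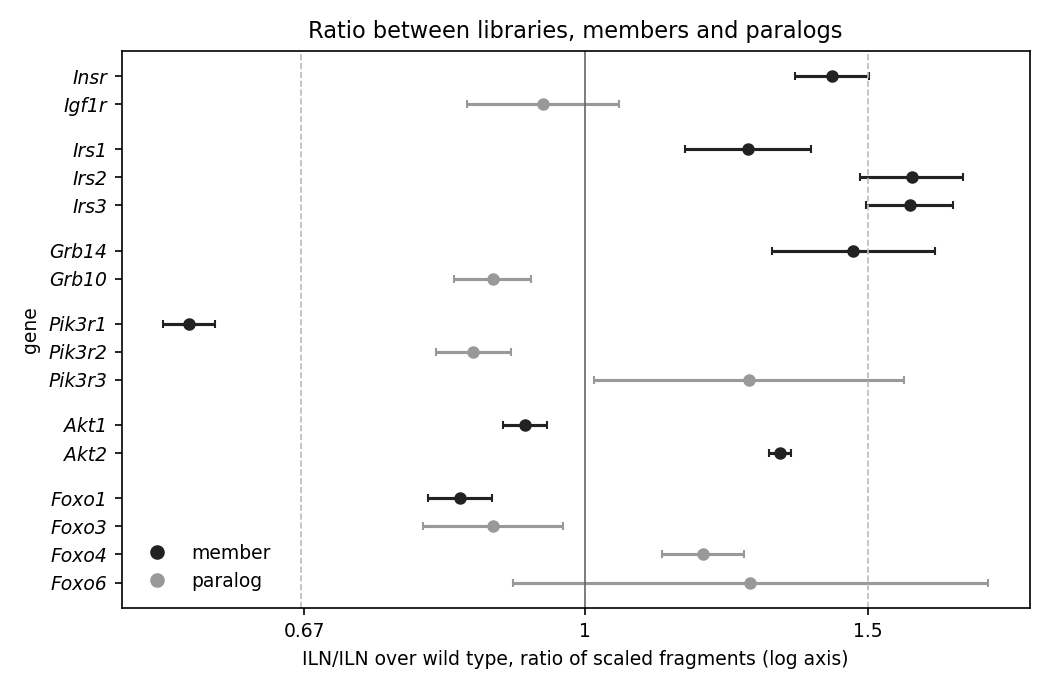
Ratio of scaled fragments, ILN/ILN over wild type (log axis), for the 9 members (black) and paralogs (grey; Insrr and Grb7, both under the minimum and lower still, and Irs4 are not drawn), with 95% exact conditional intervals for counting error. Dashed lines mark 1.5-fold either way. Igf1r and Grb10 lie below 1 where Insr and Grb14 lie above, and Pik3r1 lies farthest from 1 of the 9 members.

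Pik3r1 had the largest difference of the 9 genes. It encodes the regulatory subunit that binds phosphorylated substrates, holds and stabilises the catalytic subunit, and from other start sites also gives shorter regulatory forms. It had 8143 fragments in wild type and 4308 in ILN/ILN, a level of 31.6 and 18.0, and was 1.76-fold lower (1.70 to 1.83). A ratio as low or lower occurred in 4.69% of measured genes. Its deposited isoform-derived estimate was 0.876 of the original one in wild type and 0.897 in ILN/ILN, so both estimates were lower in ILN/ILN.

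The other regulatory subunit genes differed less. Pik3r2 had 3055 and 2426 fragments, a level of 20.4 and 17.4 and a ratio of 0.853 (0.808 to 0.900). Pik3r3, under the minimum, had 153 and 180 fragments and a ratio of 1.26 (1.01 to 1.58). Pik3r1 made up 60.0% of the summed level of these 3 genes in wild type and 49.7% in ILN/ILN, and the sum went from 52.6 to 36.2. In ILN/ILN the level of Pik3r1 was 1.03 times that of Pik3r2, against 1.55 times in wild type.

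The catalytic subunit genes did not share 1 direction. Pik3ca, which encodes a broadly expressed catalytic subunit, had 1721 and 1641 fragments and a ratio of 1.02 (0.957 to 1.10). Pik3cb, the other broadly expressed one, was higher at 9.99 and 15.3, a ratio of 1.53 (1.45 to 1.62). Pik3cd and Pik3cg, the catalytic subunit genes typical of leukocytes, were lower, at 10.9 and 5.73 (1.91-fold) and at 3.14 and 1.99 (1.58-fold). B and T cell markers were lower in the same library, with median log2 ratios of -2.41 and -1.66, and their part in these values was not tested. The level of Pik3r1 over the sum of Pik3ca, Pik3cb and Pik3cd was 1.27 in wild type and 0.714 in ILN/ILN.

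Akt2 and Akt1 differed in opposite directions by fragments. Akt2, the Akt isoform tied to glucose uptake in fat and muscle, had 29001 fragments in wild type and 35706 in ILN/ILN, a level of 213 and 282 and a ratio of 1.32 (1.30 to 1.34). Its level ranked at percentile 96.1 of measured genes in wild type and 97.0 in ILN/ILN. Akt1, the isoform better known for growth and survival, had 8439 and 7217 fragments and a ratio of 0.919 (0.890 to 0.948). Its deposited level was nonetheless 79.3 in wild type and 83.4 in ILN/ILN. The deposited value takes the larger of an original and an isoform-derived estimate, and for Akt1 the derived one was 1.15 times the original in wild type and 1.31 times in ILN/ILN. The direction of Akt1 therefore depends on the estimate, and from fragments alone its level was 69.2 and 63.6.

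From fragments per length, Akt2 was 3.07 times Akt1 in wild type and 4.43 times in ILN/ILN, and from the deposited values 2.68 and 3.38 times. Akt2 thus made up 75.5% of the summed level of Akt1 and Akt2 in wild type and 81.6% in ILN/ILN from fragments, and 72.9% and 77.2% from the deposited values. The sum of both genes from fragments went from 282 to 345.

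**Figure D3:**
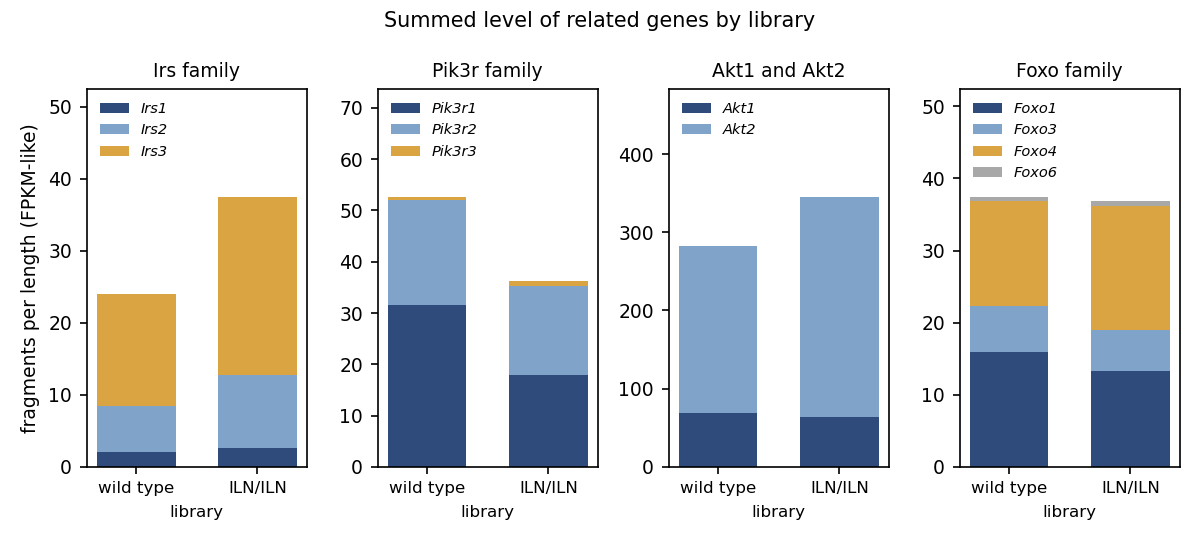
Level from fragments per length (FPKM-like) of related genes in 4 groups, stacked, in the wild-type and ILN/ILN libraries, 1 library per bar and a separate axis per group. The Irs sum was 23.9 and 37.5, the Pik3r sum 52.6 and 36.2, the sum of Akt1 and Akt2 282 and 345 and the Foxo sum 37.4 and 36.9.

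Foxo1 was slightly lower in the ILN/ILN library. It had 4229 and 3296 fragments, a level of 15.9 and 13.3 and a ratio of 0.837 (0.800 to 0.876), and 19.5% of measured genes had a ratio as low or lower. Foxo3 had 879 and 718 fragments and a ratio of 0.877 (0.794 to 0.969). Foxo4 differed the other way, at 14.5 and 17.2, a ratio of 1.18 (1.12 to 1.26). As a result Foxo1 was the most abundant of the family in wild type, at 42.5% of its summed level against 38.8% for Foxo4, while in ILN/ILN Foxo4 held 46.7% and Foxo1 36.1%. Foxo6 was under the minimum, with 67 and 79 fragments. Foxo1 overlaps an antisense gene by up to 589 bases of exon, so its value carries the same uncertainty about strand as those of Irs1 and Irs2.

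In the order of levels within the wild-type library Akt2 was followed by Akt1, Pik3r1, Foxo1, Irs3, Irs2, Grb14, Insr and Irs1. The counting intervals of Foxo1 (15.4 to 16.4) and Irs3 (14.8 to 16.3) overlapped, as did those of Grb14 (4.99 to 5.95) and Insr (5.17 to 5.60). In ILN/ILN Irs3 (23.7 to 25.7) stood above Pik3r1 (17.4 to 18.5) and Foxo1 (12.9 to 13.8), and the rest of the order was the same. In both libraries 5 of the 9 genes, namely Akt2, Akt1, Pik3r1, Foxo1 and Irs3, were above the median level of measured genes.

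**Figure D4:**
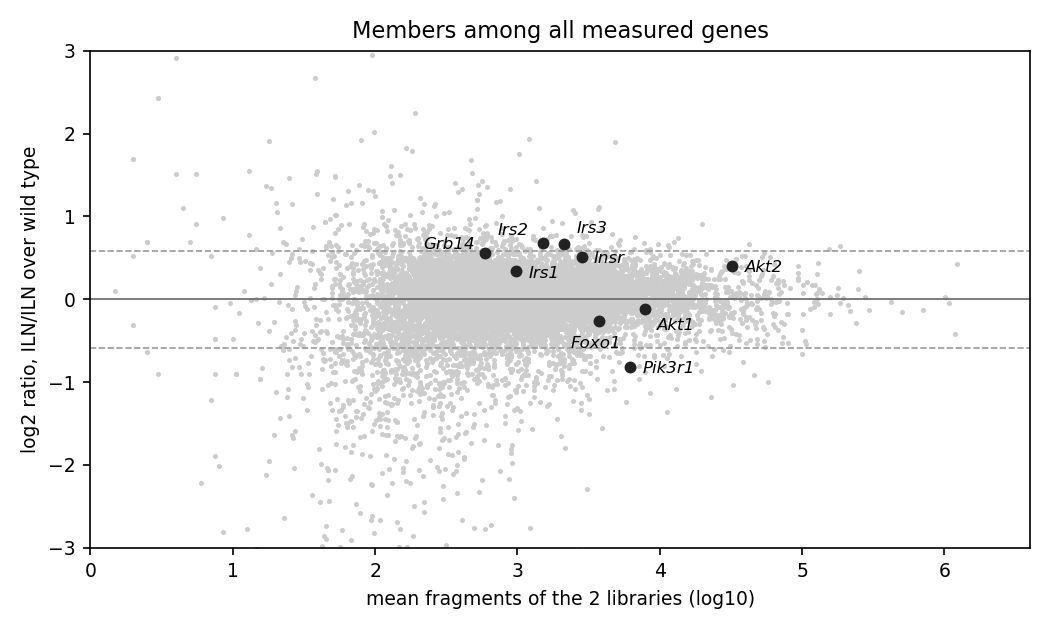
Log2 ratio, ILN/ILN over wild type, against the mean fragments of the 2 libraries (log10) for measured genes (grey) and the 9 members (black), with dashed lines at 1.5-fold; 57 genes beyond a log2 ratio of 3 either way are not drawn. Pik3r1, at -0.82, lies below the lower line, Irs2 and Irs3, both at 0.67, lie above the upper one, and the other members lie between the lines.

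Beyond the members, 78 further genes of the pathway were listed by role, and 69 of them were measured. Of these 69, 4 were at least 1.5-fold higher (Pck1, Bcl6, Pik3cb and Pdk4) and 3 lower (Pik3cd, Socs1 and Pik3cg), against 2.88% and 7.59% of all measured genes. The median log2 ratio of the 69 was 0.11, against 0.02 over all measured genes. Among 11 measured substrates and positive adaptors, Irs1 to Irs3 included, only Irs2 and Irs3 were 1.5-fold higher and none was lower, with a median of 0.12. Sh2b2, an adaptor that binds the active receptor, was at 23.4 and 28.4, a ratio of 1.22 (1.16 to 1.28).

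Of 6 measured receptor inhibitors 5 had a log2 ratio below 0, Grb14 being the exception, and the median was -0.35. Among all 11528 measured genes 5446 lay below 0. Ptprf, counted among the 5, had 1271 and 1179 fragments and a ratio of 0.996 (0.920 to 1.08), an interval that includes 1. Socs1 and Socs3, cytokine-induced inhibitors that also bind the receptor or its substrates, had 181 and 94 fragments (1.79-fold lower) and 364 and 237 fragments (1.43-fold lower). Ptpn1, the tyrosine phosphatase that acts on the insulin receptor, was at 21.5 and 15.1 (1.42-fold lower; 1.36 to 1.49).

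Among 6 lipid phosphatases and Akt inhibitors none passed 1.5-fold, and the median log2 ratio was 0.17. Inpp5d, a lipid phosphatase of blood cells, was at 11.3 and 7.87 (1.43-fold lower), whereas Inppl1 and Inpp5k, at ratios of 1.22 and 1.20, and the Akt phosphatase gene Phlpp2, at 1.26, were higher. None of 9 Akt genes and kinases acting on or with Akt passed 1.5-fold, with a median of 0.17. Pdpk1, the kinase that phosphorylates Akt at the membrane, had 315 and 371 fragments (1.27; 1.09 to 1.48), Mtor had a ratio of 1.17 (1.13 to 1.22), and Mlst8, a subunit of both mTOR complexes, one of 1.13. Rictor, which defines the mTOR complex that phosphorylates Akt, had an interval that includes 1 (0.996 to 1.26).

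Of 12 measured Akt substrates, Foxo1, Foxo3 and Foxo4 included, none passed 1.5-fold, and the median log2 ratio was 0.12. Pde3b, the phosphodiesterase through which insulin lowers cyclic AMP in adipocytes, came nearest, at 20.5 and 30.5 (1.48; 1.43 to 1.54). Gsk3b, a kinase of glycogen synthase that Akt inhibits, was at 4.06 and 5.56 (1.37; 1.28 to 1.46).

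**Figure D5:**
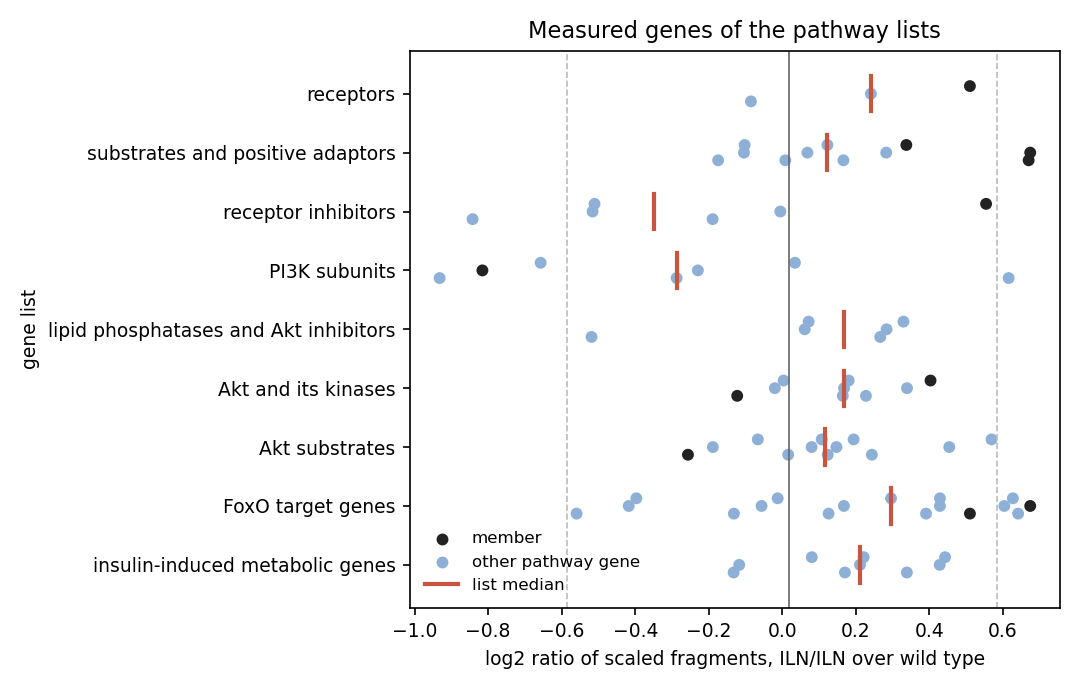
Log2 ratio of scaled fragments, ILN/ILN over wild type, of each measured gene in the 9 pathway lists (members black, other genes blue), with the list median in red, the median of all measured genes as a grey line and 1.5-fold as dashed lines. Receptor inhibitors and phosphoinositide 3-kinase (PI3K) subunits have medians below 0, at -0.35 and -0.29, and the other 7 lists above 0.

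Known FoxO target genes, a list that holds Insr and Irs2, had a median log2 ratio of 0.30 over 17 measured genes, with 11 above 0 and 6 below. Of all 11528 measured genes, 6082 were above 0 and 5446 below. Besides Irs2, 3 of the target genes were at least 1.5-fold higher, where 2.88% of all measured genes were. Pck1, which in fat helps supply the glycerol backbone of triglyceride, was at 1211 and 1890 (1.56; 1.55 to 1.57). Pdk4, an inhibitor of pyruvate dehydrogenase, was at 33.8 and 51.4, and Bcl6, a transcriptional repressor, at 8.92 and 13.8. With the libraries scaled to the white adipocyte markers neither Irs2 nor any of these 3 genes passed 1.5-fold. Among other genes of the list, Sesn1 had 2803 and 1771 fragments (1.47-fold lower), named here with its values already known. The FoxO motif GTAAACA was searched on both strands of the 300 bases around each start site in RefSeq (GRCm38.p6). It was found in 1 of 13 windows of 8 members, at Akt1, and in 3.65% of all 32851 windows. Insr, the remaining member, had no window. The windows of Pck1, Pdk4, Bcl6 and Foxo3 did not hold the motif.

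Of 9 insulin-induced metabolic genes none passed 1.5-fold, and the median log2 ratio was 0.21. Of these 9 genes 7 lay above 0, as 6082 of all 11528 measured genes did. The 2 below 0, named with their values already known, were Srebf1 (0.922; 0.907 to 0.938) and Fasn (0.912; 0.909 to 0.915). Slc2a4, the insulin-responsive glucose transporter, was at 94.0 and 109.6 (1.17; 1.14 to 1.19), and Hk2, a hexokinase, at 19.3 and 26.2. Scd1, the stearoyl-CoA desaturase, had a ratio of 1.35 and Lpl, the lipoprotein lipase, one of 1.27.

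The median log2 ratio of the white adipocyte markers was 0.20, and scaling the libraries to that median lowers every log2 ratio by this amount. On that scale Irs2 and Irs3 were at 0.48 and 0.47 and no longer past 1.5-fold, and Pik3r1, at -1.01, was the only member past it. Of 78 measured pathway genes, members included, none was then 1.5-fold higher, and 10 were lower, Pik3r1 included. Among all measured genes 1.33% were then 1.5-fold higher and 12.9% lower. Each member kept its direction under this scaling. Slc2a4 and Pnpla2 are on both the marker list and the pathway lists, so this scale is not fully independent of the pathway genes.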

How the data were processed

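Per the labels' protocols, polyadenylated RNA was copied into strand-marked libraries. Of tools and builds, TopHat 1.4.1, Bowtie 0.12.3, bedtools and mm9 appear in the submitters' processing notes. Their roles and the counting program with its annotation and strand setting are each not given in the sources used here.

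Each table deposited by the authors holds an FPKM-like value per gene, its log2(value + 1), and the per-kilobase signal behind it, whose final column is the larger of 2 estimates. The deposited original estimate times gene length was whole, within 0.01, in 100% of genes above 0, and this number is called fragments. Ratios were computed from fragments scaled by library sums with Python 3.11.15 and scipy 1.17.1. A count of 0 allows 3 fragments, or 0.0650 and 0.0698 per 1000000 fragments. Genes reaching a value of 1 in 1 or both libraries counted as measured, and 28 of these 11556 had no fragment.

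Members and gene lists were chosen with earlier results of these data known. Named genes were the members, their paralogs, up to 4 genes per list with the largest log2 ratio and at least 20 fragments, and a few fixed kinases, subunits and Slc2a4. Some listed genes are not reported here. The counting intervals and the 1.5-fold call were tested on simulated Poisson counts. Library scaling, the site searches and variation between mice were not part of that test. No coordinates of mm9 were converted. Marker lists of fibroblasts, endothelium, basal epithelium, skeletal muscle and brown adipocytes had median log2 ratios of 0.07, 0.38, -0.19 (over 4 of 7 genes, without the keratins at 0 in ILN/ILN), -0.05 and -0.11, and that of macrophages -0.55.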

Additional observations from a re-analysis of the deposited data

How the results depend on the processing

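With 1 library per genotype, counting error is the only error measured. No paired analysis was possible because each genotype has 1 sample, and for the same reason none could be left out. With the median of white adipocyte genes set to a ratio of 1, the log2 ratios were 0.31 for Insr, 0.14 for Irs1, 0.48 for Irs2, 0.47 for Irs3, 0.36 for Grb14, -1.01 for Pik3r1, -0.32 for Akt1, 0.21 for Akt2 and -0.45 for Foxo1. This scaling left 0 of 78 measured pathway genes, members included, 1.5-fold higher and 10 lower, against 6 and 4 with library totals. Of all measured genes it left 1.33% higher and 12.9% lower, against 2.88% and 7.59%. Akt1 was at 0.0723, 0.0722 and 0.0714 with the deposited values and pseudocounts of 0, 0.1 and 1, against -0.12 from fragments. With the median ratio of genes with at least 100 fragments set to 1, Akt2 was at 0.38, against 0.40. At a threshold of 2-fold 0 pathway genes were higher and 0 lower, where 0.798% and 3.36% of all measured genes were. At a log2 ratio of 0.32 there were 20 and 10, where 12.1% and 15.7% of all measured genes were. With a minimum value of 5 there were 6 higher and 2 lower at 1.5-fold, and with no minimum 7 higher and 7 lower. The share of all genes at these minima was not worked out. With 8-mer sites alone, 0 members and 4 of 78 pathway genes held one, against 2 and 19. Among all measured genes searched, 2.90% held the 8-mer and 21.0% any site. The upper quartile scaling left each member inside its counting interval. Pik3r1 was past 1.5-fold in each of the 7 settings, and Irs2 and Irs3 in 6.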

Other observations

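Some pathway genes under the expression minimum had lower fragments in the ILN/ILN library. They were picked with their values already known. Insrr had 86 fragments in wild type and 28 in ILN/ILN, a 2.86-fold lower value (1.85 to 4.55). Grb7 had 82 and 26, 2.94-fold lower (1.87 to 4.76). Enpp1, which encodes an ectoenzyme reported to bind the insulin receptor, had 151 and 82, 1.72-fold lower (1.30 to 2.27). Pik3r3 and Foxo6, also under the minimum, went the other way, at ratios of 1.26 (1.01 to 1.58) and 1.27 (0.903 to 1.78). The share of all genes under the minimum that were lower was not worked out. G6pc, Igfbp1 and Trim63, FoxO targets known from liver, kidney and muscle, had at most 3 fragments in either library.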
